A study of Mus musculus with 56 samples.

Results

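The livers of 3 adult mice, taken 45 days after a Cre vector that deletes miR-122, were compared with the livers of 2 fetuses at E18, microRNA by microRNA, to see how far the adult liver without miR-122 carried a fetal microRNA profile. These 5 small RNA libraries were chosen by the day and stage in their labels, from 42 small RNA libraries of a series of 56 samples. The day 45 mice were 129Sv/J adults with LoxP sites around pre-miR-122 that received an rAAV8 vector with Cre under the Ef1a promoter, which is active in many cell types. The E18 embryos were wild-type 129Sv/J and received no vector. Adult references were 3 uninjected floxed 129Sv/J mice (day 0) and 2 wild-type 129Sv/J mice at P270. Each library is 1 animal, and the sex of the animals is not given. Between day 45 and E18 the floxed alleles, the vector, the age and the litter all differ together with the loss of miR-122, and these cannot be told apart. In whole liver, fewer cells of a type and less RNA per cell cannot be told apart either.

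MicroRNAs are cut from hairpin transcripts and lower the output of mRNAs that match their seed, the bases next to the 5′ end. miR-122 is the main microRNA of hepatocytes. The fetal liver is also the site where red and white blood cells form, and its hepatoblasts divide quickly. Several microRNA loci are known for fetal expression that fades after birth, among them the large imprinted Dlk1-Dio3 cluster at chr12qF1 and the Igf2-H19 locus, whereas let-7 is known for rising as tissues mature.

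Mature sequences are given from RefSeq (GRCm38.p6) with the seed, bases 2 to 8, in capitals. The deposited table lists hairpins and does not separate the arms of a hairpin, so the arm shown is the one usually counted as the main product. The first set holds some of the microRNAs that were higher at day 45 than at E18. Those printed share 3 seeds with 1 exception, miR-137. Others that were higher, such as miR-195, miR-10a and miR-150, are not printed. Reads of let-7b, let-7c and let-7f, or of miR-29a, miR-29b and miR-29c, differ at few positions, and the alignment allowed 2 mismatches, so the split between such members is uncertain.
let-7b-5p (chr15:85707325-85707346, plus strand): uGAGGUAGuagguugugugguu
let-7c-5p (chr16:77599672-77599693, plus strand): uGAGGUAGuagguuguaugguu
let-7f-5p (chr13:48537889-48537910, minus strand): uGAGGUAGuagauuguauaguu
miR-29a-3p (chr6:31062673-31062694, minus strand): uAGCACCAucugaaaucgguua
miR-29c-3p (chr1:195037600-195037621, plus strand): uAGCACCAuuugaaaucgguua
miR-29b-3p (chr1:195037091-195037113, plus strand): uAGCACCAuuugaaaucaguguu
miR-99a-5p (chr16:77598940-77598961, plus strand): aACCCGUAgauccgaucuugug
miR-100-5p (chr9:41531437-41531458, plus strand): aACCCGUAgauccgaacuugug
miR-137-3p (chr3:118433901-118433923, plus strand): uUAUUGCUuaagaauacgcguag
The second set comes from the chr12qF1 cluster. The first 4 made a part of the cluster's reads at day 45 that overlapped E18 or, for miR-665, lay above it, and the other 4 made a smaller part of it in every day 45 liver than in either embryo.
miR-665-3p (chr12:109586368-109586387, plus strand): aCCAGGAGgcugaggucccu
miR-127-3p (chr12:109592888-109592909, plus strand): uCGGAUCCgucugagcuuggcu
miR-376a-3p (chr12:109723824-109723844, plus strand): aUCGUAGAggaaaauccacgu
miR-376b-3p (chr12:109723508-109723528, plus strand): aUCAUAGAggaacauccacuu
miR-431-5p (chr12:109590459-109590479, plus strand): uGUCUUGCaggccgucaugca
miR-433-3p (chr12:109591781-109591802, plus strand): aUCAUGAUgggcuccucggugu
miR-369-3p (chr12:109743466-109743486, plus strand): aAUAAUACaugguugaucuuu
miR-410-3p (chr12:109743764-109743784, plus strand): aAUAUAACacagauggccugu
The third set is the miR-200 family, whose summed share at day 45 overlapped that of E18 although most single members did not overlap, and the red cell pair miR-144 and miR-451, whose level was lower. The family has 2 seeds, 1 shared by miR-200a and miR-141 and 1 by miR-200b, miR-200c and miR-429.
miR-200a-3p (chr4:156054911-156054932, minus strand): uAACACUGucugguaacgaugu
miR-141-3p (chr6:124717917-124717938, minus strand): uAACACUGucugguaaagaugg
miR-200b-3p (chr4:156055685-156055706, minus strand): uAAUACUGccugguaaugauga
miR-200c-3p (chr6:124718324-124718346, minus strand): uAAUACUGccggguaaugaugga
miR-429-3p (chr4:156053916-156053937, minus strand): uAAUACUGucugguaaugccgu
miR-144-3p (chr11:78073047-78073066, plus strand): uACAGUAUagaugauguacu
miR-451a (chr11:78073186-78073207, plus strand): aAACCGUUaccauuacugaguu

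miR-122 itself made up 0.908%, 0.383% and 1.23% of all microRNA reads in the day 45 livers and 27.2% and 41.7% in the E18 livers, against 59.2% to 73.3% at day 0. The day 45 livers held less miR-122 than the fetal livers did. All other microRNAs are given as reads per 1000000 reads other than miR-122 (RPM), after the 1 that the authors had added to each value was subtracted. The day 45 libraries hold 80092, 193910 and 533633 reads and the E18 libraries 622245 and 792789, and 1 read other than miR-122 is worth 12.6 RPM in day 45 replicate A and 2.21 and 2.16 RPM in the embryos. A count of 0 allows up to 3 reads, or 37.8, 15.5 and 5.69 RPM in the day 45 livers. Of the adult references, P270 replicate A stands apart: its listed values add up to 516634 RPM, short of the full scale of the table, and miR-706 alone has 179894 RPM there. That library holds 21824 reads other than miR-122, so a count of 0 in it allows up to 137 RPM. Day 0 replicate B holds 223886 RPM of miR-21, against 45364 and 16959.5 RPM in the other uninjected livers. Of the 478 microRNAs other than miR-122, 294 passed the filter of a mean of 10 RPM over the day 0, day 45, E18 and P270 libraries and were tested with limma, and 184 did not pass. Among the latter, 54 had a read both at day 45 and at E18, 29 at day 45 alone, 43 at E18 alone and 58 at neither.

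Most microRNAs that differed were lower at day 45 than at E18. At an adjusted p of 0.05 (limma, Benjamini-Hochberg over 294), 109 microRNAs were lower (37.1% of those tested) and 16 were higher (5.44%), or 42.5% called in all. The 3 day 45 livers and the 2 embryos did not overlap for any of these 125, but non-overlap alone was common, with day 45 above for 45 microRNAs (15.3% of those tested) and below for 177 (60.2%). The median difference over all 294 was −1.72 on the log2(RPM + 1) scale, so the typical microRNA took a smaller part of the day 45 reads, and differences are also given below relative to that median. When each library was centred on its own median instead, the split turned to 63 higher and 38 lower, and no microRNA was called in the opposite direction to the one given. Under that and 2 further scalings, 38 of the 109 lower (12.9% of those tested) and 14 of the 16 higher (4.76%) were called the same way each time. The calls also rest on both embryos: without E18 replicate A there were 60 lower and 8 higher, and without replicate B 56 lower.

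**Figure D1:**
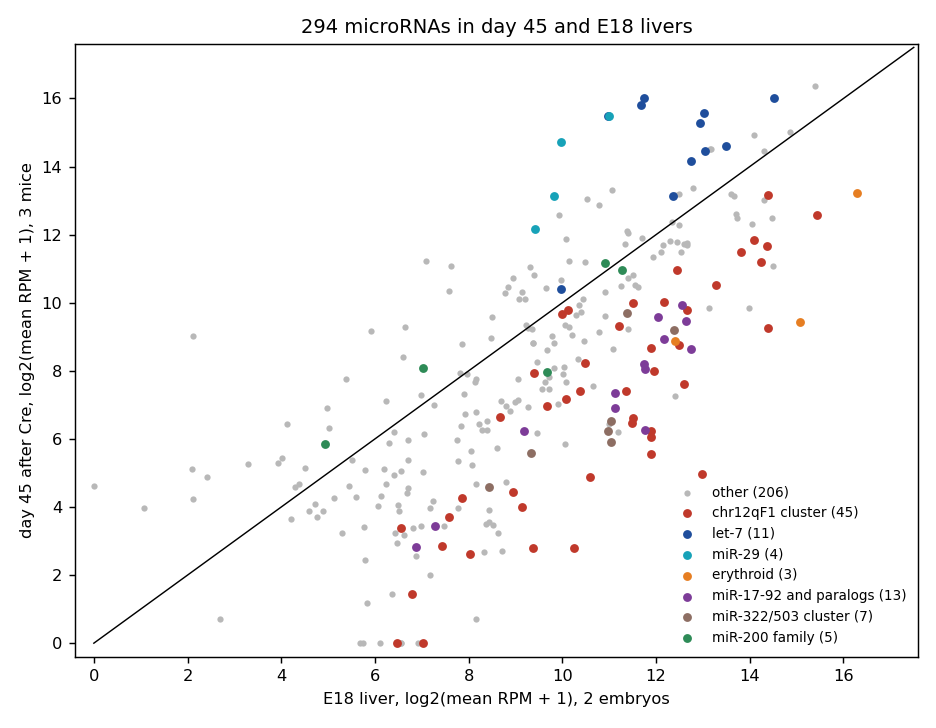
Mean level of each of the 294 tested microRNAs in the 2 E18 livers (horizontal) and the 3 day 45 livers (vertical), both as log2(mean RPM + 1), with the line of equal level and the members of 7 groups in colour (number in brackets). The let-7 and miR-29 points lie above the line, the chr12qF1, erythroid, miR-17-92 and miR-322/miR-503 points below it, and the miR-200 points on both sides of it.

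The group that was higher at day 45 held 5 let-7 hairpins, 3 miR-29 hairpins, the related pair miR-99a and miR-100, the neighbours miR-195 and miR-497, miR-10a, miR-137, miR-150 and miR-151. let-7b, of the family that holds back fetal growth genes, had 25540.2, 58747 and 52734 RPM at day 45 and 1153 and 2843 RPM at E18 (log2 difference 4.57, SE 0.87, limma adjusted p = 0.000371). All day 45 livers were above both embryos, and the difference relative to the median of all microRNAs was 6.29.

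The let-7 hairpins together made 30.2%, 51.9% and 38.1% of reads other than miR-122 at day 45, and 6.23% and 10.0% at E18. The day 0 livers had 46.0%, 19.02% and 53.1%, a range that holds all 3 day 45 livers. At P270 the let-7 share was 9.07% in replicate A, within the E18 range, and 58.9% in replicate B. The P28 liver had 9.88%, and the E14 livers had 6.98% and 23.8%. Of the 11 hairpins tested, 5 were higher at day 45 than at E18, where 5.44% of all tested microRNAs were, and 6 were not called, with a median of 1.50 against −1.72 over all microRNAs. When libraries were centred, 10 of the 11 were higher, as were 63 of all 294. None was called against day 0, and 1 was lower than at day 0 when centred, as were 28 of all 294. let-7c-2 and let-7c-1 differed by 4.30 and 4.19, let-7f-2 and let-7f-1 by 2.44 and 2.24, and let-7e, which was not called, by 0.68. Without E18 replicate A neither let-7f-1 nor let-7f-2 was called (adjusted p = 0.113 and 0.0966 in limma), nor was let-7f-1 without day 45 replicate B (adjusted p = 0.0559).

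Of the miR-29 hairpins, known for acting on collagen mRNAs, miR-29a had 49770.0, 27763 and 61131 RPM at day 45 and 2187 and 1913 RPM at E18 (4.42, SE 0.55, limma adjusted p = 8.86e-06). miR-29c had 29673, 9924 and 42134 RPM against 910.1 and 1093 RPM (4.54, SE 0.74, limma adjusted p = 0.00011). All day 45 livers were above both embryos for each of them, and at day 0 the levels were 28189, 38777 and 21722 RPM of miR-29a and 17008, 40543 and 9839.7 RPM of miR-29c. miR-29b-2 differed by 3.01 (adjusted p = 0.0238 in limma), a call that was lost without E18 replicate A, E18 replicate B, day 45 replicate A or day 45 replicate B (adjusted p = 0.0805, 0.149, 0.0941 and 0.0532). miR-29b-1, which shares its mature sequence, was not called (2.33, adjusted p = 0.12).

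miR-137, a microRNA best known from neurons, had the largest difference of the 16. It had 403, 238 and 924 RPM at day 45 and 4.40 and 2.23 RPM at E18 (6.74, SE 0.82, limma adjusted p = 8.86e-06). At day 0 it had 379.6, 337 and 283 RPM, which lay within the day 45 range. miR-100 had 1323, 2324 and 3491 RPM against 95.0 and 175 RPM in the embryos (4.08, SE 1.15, limma adjusted p = 0.00726), and this call was lost without E18 replicate A (adjusted p = 0.0795). miR-195, of the miR-15/16 seed family that slows the cell cycle, had 2318, 2832 and 1284 RPM against 146 and 249 RPM (3.41, SE 0.67, limma adjusted p = 0.00046). miR-150, a microRNA of mature lymphocytes, had 995, 435 and 287 RPM against 81.8 and 36.7 RPM (3.16, SE 0.70, limma adjusted p = 0.00118). None of these 4 was called against day 0.

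The chr12qF1 cluster was present at day 45 far above the adult level and below the E18 level. Its 51 listed hairpins made 1.07%, 4.27% and 6.61% of reads other than miR-122 at day 45 (848, 8256 and 34820 reads). They made 27.2% and 23.4% at E18, 0.0281%, 0.0301% and 0.0338% at day 0 and 0.0457% and 0.0359% at P270. The day 45 livers thus lay between the adult and E18 ranges and overlapped neither, with an E18 mean 6.35-fold above the day 45 mean. In the E14 livers the cluster made 7.82% and 4.56%, and the share of day 45 replicate C lay between these. Of the 45 members tested, 33 (73.3%, against 37.1% over all tested) were lower at day 45 than at E18 and none was higher, with a median of −3.87 (−3.50 with the 2 members without a day 45 read at their bound), and 15 were lower under each of the 4 scalings. The other 12 were not called, which does not show that they had reached the fetal level.

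**Figure D2:**
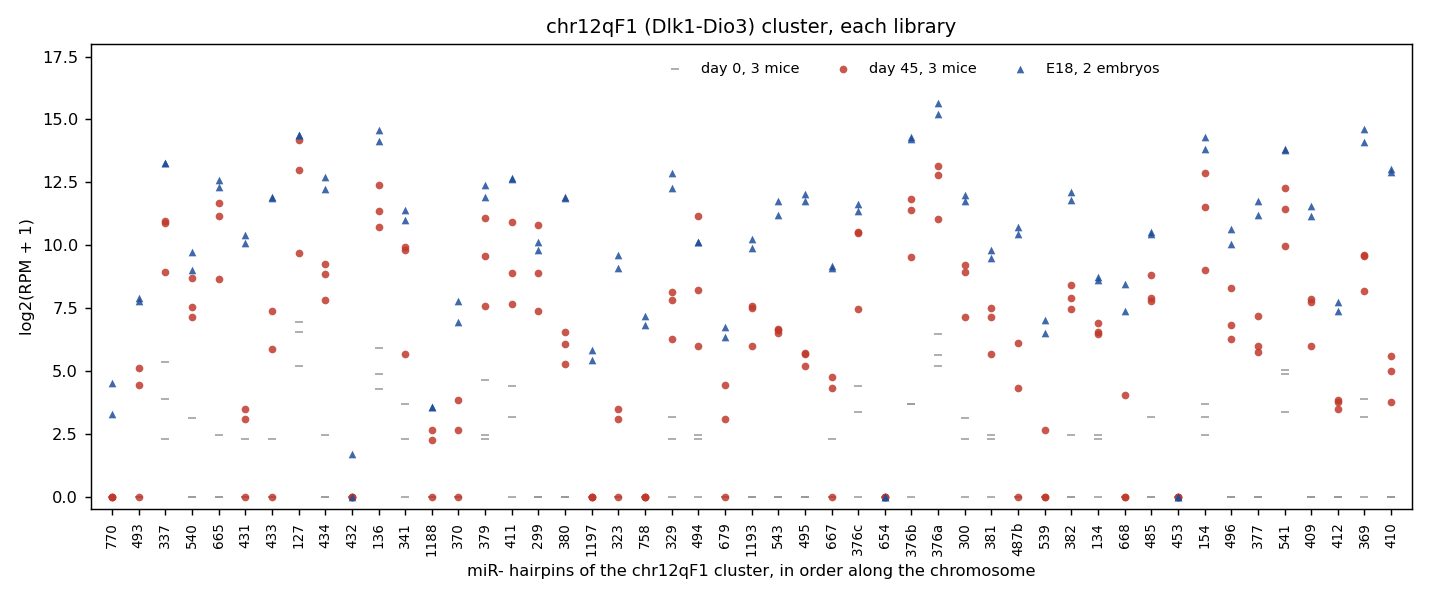
Level of each of 49 chr12qF1 hairpins, in their order along the chromosome, as log2(RPM + 1) in each library of day 0 (grey dashes), day 45 (red circles) and E18 (blue triangles). The red points stand between grey and blue for most hairpins, with at least 1 red point above both blue ones at miR-299 and miR-494, and all red points far below the blue ones at miR-431, miR-433 and miR-410.

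The members differed widely in how near they came to E18. miR-299 had 164, 476 and 1783 RPM at day 45 and 903 and 1121 RPM at E18 (−0.95, SE 1.06, limma adjusted p = 0.459), and no read at day 0. miR-494 had 63.0, 295 and 2288 RPM and 1102 and 1132 RPM (−1.67, SE 1.37, limma adjusted p = 0.336). For these 2, day 45 replicate C was above both embryos and the other day 45 livers were below them. miR-665 had 403, 2309 and 3292 RPM and 6088 and 5102 RPM (−1.94, SE 1.23, limma adjusted p = 0.209), with all day 45 livers below. miR-127 had 819, 8029 and 18684 RPM and 21266 and 21555 RPM (−2.11, SE 1.30, limma adjusted p = 0.195). Its day 45 replicate C came near the embryos and replicate A stayed far below. miR-127 had the highest mean of the cluster at day 45 through replicate C, while in replicates A and B miR-376a was above it.

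At the other end stood miR-410, miR-431 and miR-433. miR-410 had 12.6, 31.0 and 47.4 RPM at day 45, from 1, 6 and 25 reads, and 8374 and 7691 RPM at E18 (−8.18, SE 1.08, limma adjusted p = 1.51e-05). This was the largest difference of all 294 microRNAs, at −6.46 relative to the median, while miR-410 was higher at day 45 than at day 0 (limma adjusted p = 0.000545), where no liver had a read. Against the 3-read limit of day 0, its day 45 mean was at least 2.18-fold higher. miR-431 had 0, 10.3 and 7.59 RPM at day 45 and 1082 and 1346 RPM at E18 (−8.04, SE 1.28, limma adjusted p = 9.30e-05), and miR-433 had 0, 56.9 and 167 RPM and 3735 and 3856 RPM (−7.47, SE 1.48, limma adjusted p = 0.000492). Neither miR-431 nor miR-433 was called against day 0 (adjusted p = 0.54 and 0.0676). miR-323 and miR-487b of the cluster differed by −7.14 and −7.11. miR-758 had no read in any day 45 liver and 146 and 113 RPM at E18, at least 3.42-fold higher in the embryos when the 3-read limit of the shallowest day 45 library is used.

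Between these ends lay most of the abundant members. miR-376a had 2104, 9090.5 and 7012 RPM at day 45 and 51051 and 37859.8 RPM at E18 (−3.10, SE 0.70, limma adjusted p = 0.00137), a call that was lost when libraries were centred on their medians (−1.12). miR-541 differed by −2.58, miR-154 by −2.93, miR-136 by −2.86 and miR-376b by −3.33. miR-369 differed by more, with 289.8, 777 and 763 RPM against 24902 and 17793 RPM (−5.24, SE 1.13, limma adjusted p = 0.000978). By mean percentage of the cluster's reads it held rank 3 at E18 and rank 12 at day 45, whereas miR-127, miR-376a, miR-136, miR-541, miR-154 and miR-376b held ranks 1 to 6 at day 45 and ranks 2, 1, 4, 7, 6 and 5 at E18.

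The make-up of the cluster was also compared as each hairpin's percentage of the cluster's reads, which does not depend on how a library is scaled. Across the 51 hairpins, the log2 percentages (with 0.01 added) of the embryos correlated with each other at a Pearson r of 0.992, day 45 livers with each other at 0.897 to 0.960, and day 45 livers with embryos at 0.821 to 0.881. The hairpins share libraries and a host transcript, so no p is given. For 25 hairpins the percentages overlapped between day 45 and E18, for 21 day 45 was below and for 5 above. The 5 above were miR-665, miR-299, miR-494, miR-376c and miR-541. Depth limits these counts. Day 45 replicate A held 848 reads of the cluster, each worth 0.118% of it, against 123120 and 107932 reads in the embryos. Among the 21 below, miR-770, miR-1197, miR-758, miR-370 and miR-539 made less than 0.118% in both embryos. The part of depth in the counts and correlations was not tested. miR-410 made 0.118%, 0.0726% and 0.0717% of the cluster at day 45 and 3.08% and 3.29% at E18, and miR-433 made 0%, 0.133% and 0.253% against 1.37% and 1.65%. miR-127, the next listed hairpin after miR-433 along the chromosome, made 7.67%, 18.8% and 28.3% of the cluster at day 45 and 7.82% and 9.23% at E18, and miR-376a made 19.7%, 21.3% and 10.6% against 18.8% and 16.2%. For both of these the groups overlapped, while for miR-410 and miR-433 every day 45 liver was below both embryos.

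The miR-200 family, which keeps epithelial cells from a mesenchymal state and marks bile duct cells in the liver, took a larger part of the reads at day 45 than at day 0 and overlapped E18. Its 5 members made 0.411%, 0.581% and 0.473% of reads other than miR-122 at day 45, 0.505% and 0.569% at E18 and 0.107%, 0.124% and 0.0311% at day 0. The day 45 and E18 shares overlapped, and all day 45 livers were above all day 0 livers. None of the 5 was called between day 45 and E18, and 4 were higher at day 45 than at day 0, where 16.7% of all tested microRNAs were. These 4 calls against day 0 were all lost when libraries were centred on their medians (0 of 5 called).

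miR-200b had 1688, 2599 and 2652 RPM at day 45, 1613 and 2213 RPM at E18 and 542, 523 and 129 RPM at day 0. Its log2 difference from E18 was 0.26 (SE 0.71, adjusted p = 0.753 in limma, 95% interval −1.20 to 1.73) and that from day 0 was 2.77 (adjusted p = 0.00216). miR-200a had 1915, 2479.7 and 1577 RPM, 2496 and 2484 RPM and 394, 523 and 141 RPM in the same groups, with a difference from E18 of −0.35. miR-429, from the same transcript, was not called, with 227, 279.6 and 243 RPM against 839 and 787 RPM (−1.70, SE 0.81, limma adjusted p = 0.0918). When libraries were centred on their medians, miR-200a, miR-200b and miR-200c were called higher at day 45 than at E18 (adjusted p = 0.0309, 0.0147 and 0.00816 in limma).

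Red cell microRNAs, by contrast, were at the adult level at day 45. The erythroid microRNAs miR-451, miR-144 and miR-486 made 1.96%, 0.780% and 0.504% of reads other than miR-122 at day 45, 16.4% and 7.59% at E18 and 0.822%, 2.08% and 0.879% at day 0. Day 45 overlapped day 0 and lay below both embryos, and all 3 were called lower than at E18 (37.1% over all tested). When libraries were centred, 1 of the 3, miR-144, was lower, beside 38 of all 294. miR-144 had 630.0, 331 and 1119 RPM at day 45 and 47415 and 21153 RPM at E18 (−5.68, SE 1.25, limma adjusted p = 0.00109), and it was lower under all 4 scalings. miR-451 differed by −3.32 (adjusted p = 0.0038 in limma), which was lost when libraries were centred (−1.34) and without E18 replicate A. The embryos themselves differed in miR-451, with 111254 and 49314 RPM.

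Of the 6 white blood cell microRNAs, miR-223, which marks granulocytes and their precursors, was lower at day 45 (983, 1129 and 643 RPM) than at E18 (14069 and 18122 RPM, −4.16, SE 0.69, limma adjusted p = 0.00011). miR-150 was higher, as given above, and miR-142, miR-146a, miR-155 and miR-342 were not called. Together the 6 made 1.17%, 0.930% and 0.668% of reads other than miR-122 at day 45. Their share was 4.10% and 3.98% at E18 and 0.421%, 0.366% and 0.521% at day 0. All day 45 livers lay above the day 0 livers and below both embryos. miR-155, which rises in activated immune cells, had 277, 305 and 431 RPM at day 45, 102 and 90.9 RPM at E18 and 64.8, 43.6 and 52.5 RPM at day 0, and it was higher than at day 0 (2.62, SE 0.79, limma adjusted p = 0.021), a call that was lost when libraries were centred. Muscle microRNAs, a check for tissue other than liver in the embryo samples, made 0.0678% and 0.250% of these reads at E18 and 0.00252%, 0.00467% and 0.00607% at day 45. All 6 were lower at day 45, where 37.1% of all tested microRNAs were. When libraries were centred, 2 of the 6 were lower, beside 38 of all 294. Their part in the other differences was not tested.

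All 13 tested members of miR-17-92 and its paralogs, which promote the cell cycle, were called lower than at E18, where 37.1% of all tested microRNAs were, with a median of −3.74. Under every scaling 4 of them were lower, beside 12.9% of all tested. Their summed share was 0.449%, 0.433% and 0.419% at day 45, 4.55% and 4.22% at E18 and 0.655%, 1.37% and 0.419% at day 0. None was called against day 0, and 6 were lower than at day 0 when libraries were centred, as were 28 of all 294. miR-18a had 101, 72.5 and 53.2 RPM at day 45 and 3402 and 3596 RPM at E18 (−5.56, SE 1.32, limma adjusted p = 0.00216). Of the 7 members of the X-linked miR-322/miR-503 cluster, 6 were lower, with a median of −3.97, and 3 when libraries were centred, as were 38 of all 294. miR-503 had 25.2, 93.2 and 102 RPM against 1685 and 2332 RPM (−4.97, SE 0.68, limma adjusted p = 1.92e-05), and its day 0 level of 64.8, 103 and 56.4 RPM overlapped day 45. miR-335, which lies in the imprinted gene Mest, had 1411, 1688 and 3349 RPM against 18663 and 27293 RPM (−3.50, SE 0.70, limma adjusted p = 0.000542, lost when centred).

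Other imprinted loci showed small day 45 levels beside large fetal ones. miR-483, in an intron of Igf2, had 75.6, 383 and 0 RPM at day 45 and 5697 and 5160.1 RPM at E18 (−7.46, SE 1.60, limma adjusted p = 0.000978). Replicate B held most of it and replicate C no read, and its call against day 0 was lost when libraries were centred. miR-675, cut from H19, had 37.8, 98.4 and 9.52 RPM against 247 and 279 RPM (−2.94, SE 0.95, limma adjusted p = 0.0164), and this call against E18 was lost when libraries were centred. No day 0 or P270 liver had a read of miR-483 or miR-675. miR-296 and miR-298 of the Gnas locus had 75.6, 82.8 and 56.9 RPM and 12.6, 103 and 53.2 RPM at day 45, and 789 and 608 RPM and 974 and 1157 RPM at E18. Both were lower at day 45 than at E18 and higher than at day 0, and all of these calls were lost when libraries were centred. miR-301b, of the miR-130 family, had the largest difference outside the imprinted loci, with 0, 0 and 1.92 RPM at day 45 and 281 and 286 RPM at E18 (−7.63, SE 1.11, limma adjusted p = 3.08e-05). Of the large Sfmbt2 cluster on chromosome 2, 26 of 51 hairpins were tested and 17 were lower at day 45 than at E18, where 37.1% of all tested microRNAs were. When libraries were centred, 7 were lower and 2 higher, beside 38 lower and 63 higher of all 294. Against day 0, 3 of the 26 were higher, beside 16.7% over all tested and 5.62% outside the chr12qF1 cluster, each at 26.5 RPM or less in every day 45 liver, and none was called when centred.

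**Figure D3:**
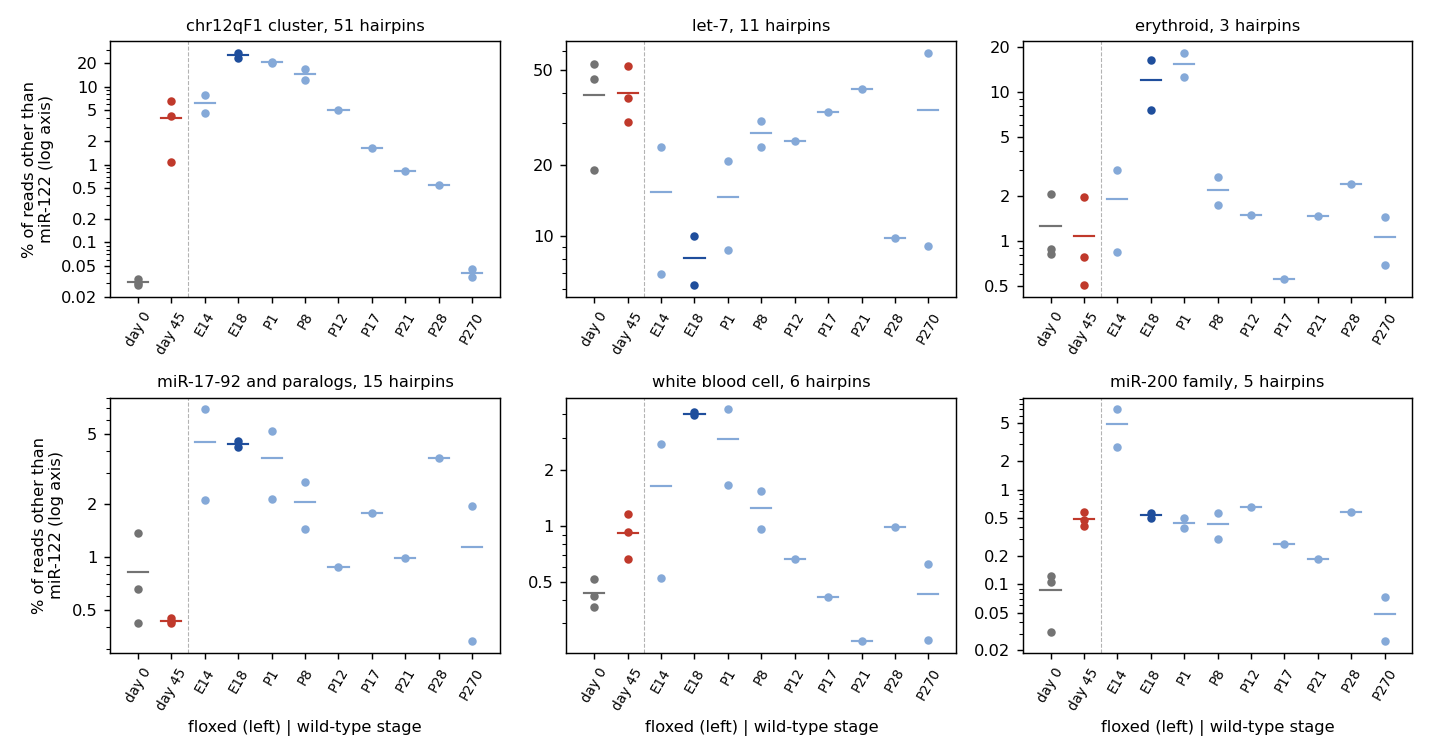
Summed share of reads other than miR-122 (percent, log axis) of 6 microRNA groups, with 1 point per liver and a line at the mean of each group: day 0 and day 45 of the floxed mice on the left, wild-type stages E14 to P270 on the right. Day 45 lies between day 0 and E18 for chr12qF1 and white blood cell microRNAs and at the E18 level for the miR-200 family. It overlaps day 0 for let-7, erythroid and miR-17-92 microRNAs, while P270 replicate A lies within the E18 range for let-7.

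Of the 117 with a mean of at least 1000 RPM over the 5 libraries, 69 were not called, 35 were lower and 13 higher at day 45 (37.1% lower and 5.44% higher over all tested), and 34 differed by less than 1 on the log2 scale. The hepatocyte microRNA miR-192 had 25389, 13667 and 28411 RPM at day 45 and 19372 and 21149 RPM at E18 (log2 difference 0.08, 95% interval −1.38 to 1.55). The endothelial miR-126 had 33655, 28882 and 36749 RPM and 24652 and 35194 RPM (0.16, interval −0.78 to 1.10). miR-21, which had the highest mean at day 45 through replicate A, had 124979, 52622 and 76022 RPM against 31709 and 53779 RPM (0.94, SE 0.90, limma adjusted p = 0.396). The other abundant microRNAs nearest to 0 were miR-15a (−0.13), miR-30d (0.19), miR-143 (−0.19), miR-23a (0.22), miR-378 (0.22) and miR-23b (0.31), and none was called. Relative to the median microRNA the differences of miR-192, miR-126 and miR-21 are larger (1.81, 1.88 and 2.67), and when libraries were centred these 3 and all of the 6 just named but miR-15a were called higher at day 45. The 8 hepatocyte microRNAs other than miR-122 made 6.79%, 2.61% and 4.17% at day 45 and 4.22% and 4.67% at E18, and none was called, or 4 higher when libraries were centred, as were 63 of all 294. The 6 stellate cell and fibroblast microRNAs made 2.88%, 0.965% and 0.836% and 0.962% and 1.25%, and none was called, or 2 higher when centred, a setting with 63 of all 294 higher.

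The change after loss of miR-122 was then set beside the fetal difference, each against its own adult reference, so that no library was shared. Compared with day 0, 49 microRNAs were higher at day 45 (16.7% of 294) and none was lower (0.0%) in limma, with 2 lower at an unadjusted p of 0.05 and 1 lower when voom weights were used. Compared with P270, 165 were higher at E18 (56.1%) and 13 lower (4.42%), or 60.5% in all. With libraries centred on their medians, the splits were 33 higher and 28 lower for day 45 against day 0, and 67 higher and 87 lower for E18 against P270. Of the 165 fetal microRNAs, 47 (28.5%) were higher at day 45 than at day 0 and none was lower, with a median change of 1.13 against 0.56 over all microRNAs, beside 16.7% called over all tested. Of the 116 that were not called between E18 and P270, 2 were higher (miR-200c and miR-155), and of the 13 that were lower at E18, none was called at day 45. With libraries centred, 33 of the 67 higher at E18 were higher at day 45. Under that setting 19 of the 87 lower at E18 were lower at day 45. Without P270 replicate A, the library that stands apart, 150 were higher at E18 and 54 of them were higher at day 45.

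Most of the shared part was the chr12qF1 cluster. All 45 of its tested members were higher at E18 than at P270 (56.1% over all tested) and 35 of them were higher at day 45 than at day 0 (16.7% over all tested), with a median change of 6.32 (5.06 with the 20 members without a day 0 read at their bound). When libraries were centred, 31 of its members were higher than at day 0. Outside it, 12 of 120 fetal microRNAs were higher at day 45, where 14 of all 249 tested outside it were (5.62%), with a median of 0.65, and of these only miR-673 and miR-675 kept the call under the 3 other scalings. The 12 were miR-675 and miR-483, miR-296 and miR-298, miR-200a, miR-200b and miR-429, miR-466b-2, miR-466c and miR-466f-2 of the Sfmbt2 cluster, miR-205 and miR-673. miR-673 was not on the list of the cluster, but RefSeq places it within the cluster's span, at chr12:109571990-109572080. It had 25.2, 56.9 and 38.0 RPM at day 45, 241 and 195 RPM at E18 and no read at day 0.

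**Figure D4:**
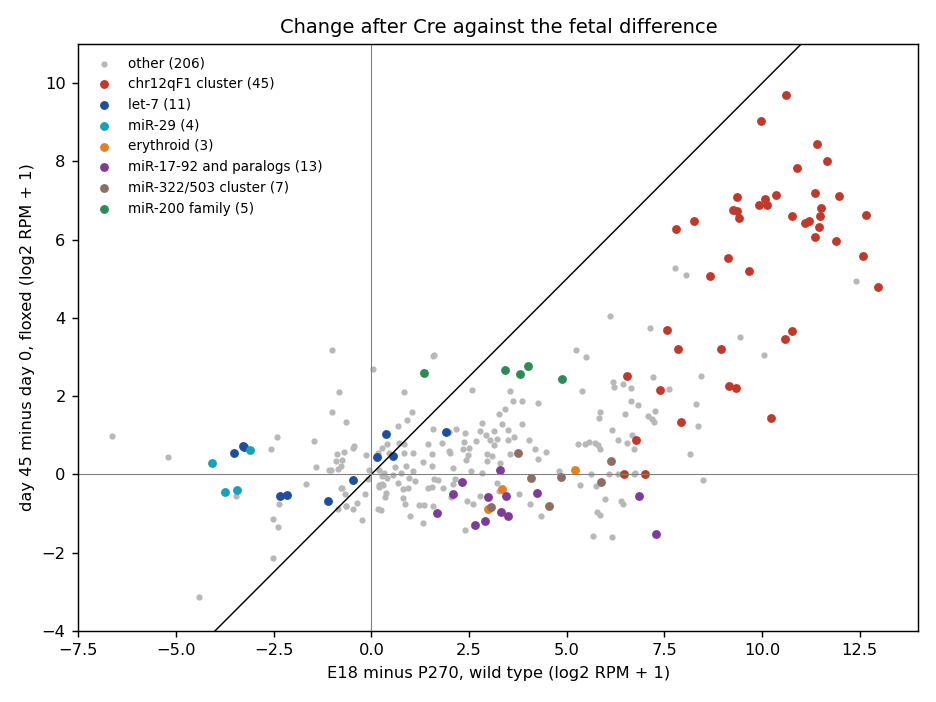
Log2 difference of day 45 from day 0 in floxed mice (vertical) against that of E18 from P270 in wild type (horizontal) for the 294 tested microRNAs, with the line of equal difference and the members of 7 groups in colour. The chr12qF1 points lie on the right and below the line, 35 of them called higher at day 45 than at day 0 and several near 0 on the vertical axis, where the miR-17-92, miR-322/miR-503, erythroid, let-7 and miR-29 points also lie.

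Across microRNAs, both differences correlated at a Pearson r of 0.693 (Spearman 0.552, n = 294), at 0.622 within the cluster (n = 45) and at 0.383 outside it (Spearman 0.309, n = 249). The points share libraries and base composition and are a description only. A test of the difference between both differences called 98 microRNAs lower (33.3% of 294) and 8 higher (2.72%), or 36.1% in all, and 28 of the 98 were in the cluster. The largest were miR-20b (−8.80, adjusted p = 0.000884 in limma) and miR-431 (−8.80, adjusted p = 0.00193). miR-20b had means of 15.7 RPM at day 0, 9.97 RPM at day 45 and 155 RPM at E18. Neither had a read at P270, where a 0 in replicate A allows up to 137 RPM, so the size of these differences is uncertain. Of the 10 largest, miR-592 was the 1 with the opposite sign (7.61), with 0, 15.6 and 28.4 RPM at day 45 and 0 and 2.23 RPM at E18. Most of its gap lay in the adult references, with 0, 63.4 and 0 RPM at day 0 and 367 and 85.7 RPM at P270, the higher P270 value being 8 reads of the library that stands apart. The 5 largest fetal differences among microRNAs not called at day 45 against day 0 were those of miR-433, miR-431, miR-323 and miR-667 of the cluster and miR-669a-2 of the Sfmbt2 locus. Within the cluster, miR-299 and miR-665 had the smallest gaps, of −0.95 and −0.92, and neither was called. With voom weights 35 were lower, and when libraries were centred 10 were lower and 15 higher. The adult references did not differ in limma at the threshold (0 of 294, 0.0%, and 39 at an unadjusted p of 0.05), but 44 were called when P270 replicate B was left out and replicate A alone stood for P270, with its spread taken from the other groups.

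The developmental stage that the day 45 profile was most like was not E18. Over the 294 microRNAs, the mean Pearson r of log2(RPM + 1) between the day 45 livers and the 2 embryos was 0.691, against 0.810 with the day 0 livers and 0.893 between day 45 livers. Among wild-type livers it was highest at P12 (0.877) and P17 (0.868), followed by P8 (0.812), P21 (0.786), P270 (0.760), P28 (0.724), P1 (0.721) and E14 (0.649), with ages as the labels give them and 1 liver each from P12 to P28. The place of P270 rested on replicate A, with r of 0.647 to 0.772, while replicate B had 0.813 to 0.862. The P28 liver and E14 replicate A also had listed totals short of the full scale, at 661131 and 676837 RPM, and their places in the order share that limit. The order differed within the cluster. Over its 45 tested members the mean r was 0.813 with E18 and 0.643 with day 0, and by the mean highest with P12 (0.875) and P8 (0.850), where P8 replicate A was above the single P12 liver for day 45 replicates B and C. The cluster made 4.98% at P12, and 12.3% and 16.7% at P8, of reads other than miR-122. Over the 249 others the mean r was 0.728 with E18 and 0.906 with day 0. With P270 it was 0.734 to 0.804 for replicate A, the library that stands apart, and 0.896 to 0.918 for replicate B, which is as high as day 0 (0.883 to 0.931). Each day 45 liver showed this order, with r to E18 and day 0 outside the cluster of 0.716 and 0.894 for replicate A, 0.738 and 0.910 for B and 0.731 and 0.913 for C. No test was run on these correlations, and the part that differences in depth have in them was not tested.

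**Figure D5:**
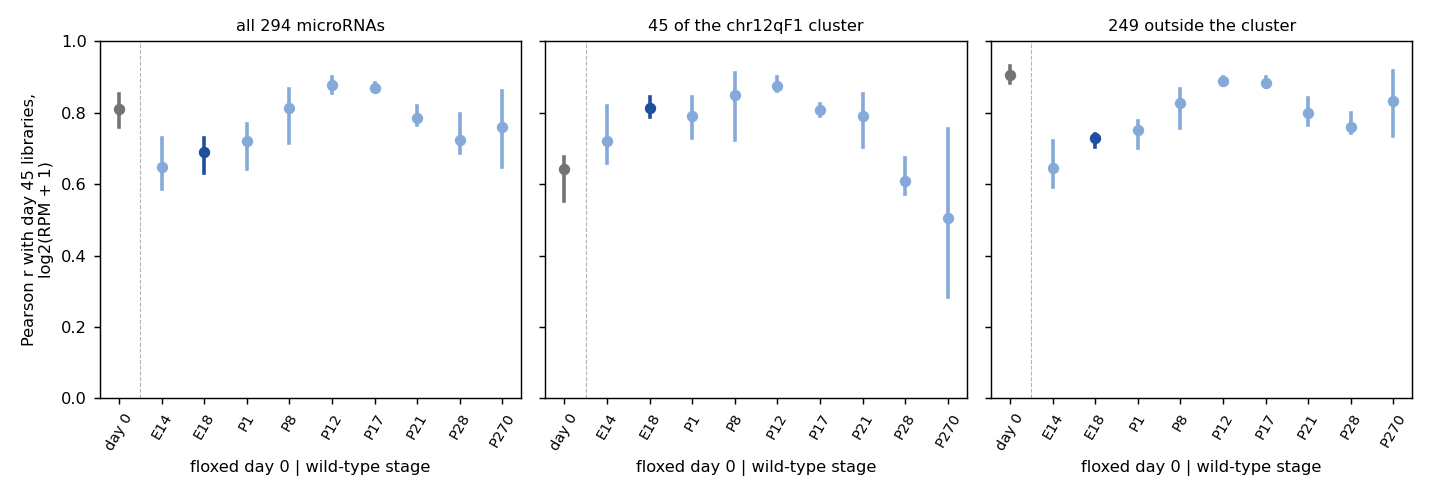
Pearson r of log2(RPM + 1) between the day 45 livers and the livers of day 0 and of each wild-type stage, over all 294 tested microRNAs, the 45 of the chr12qF1 cluster and the other 249. Points are means over pairs of livers and lines run from the lowest to the highest pair, and the E18 point is higher than that of day 0 within the cluster and lower outside it.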

How the data were processed

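Small RNA from livers was sequenced, and per the labels and the study's methods the authors aligned reads to miRBase mouse microRNAs with Bowtie 0.12.7, allowing 2 mismatches. The deposited table gives 479 hairpins as RPM with 1 added. For the values here the 1 was subtracted and each library was rescaled to its reads other than miR-122. Reads behind each value were recovered from the size of 1 read, and limits for 0 reads cover counting error only. Libraries were grouped by their labels, 1 animal each. Because these values are not counts, limma 3.58.1 (R 4.3.3) with a trend was fitted to log2(RPM + 1) over the 25 libraries of the 10 replicated groups, for the 294 microRNAs whose mean over the 10 libraries compared reached 10 RPM, with Benjamini-Hochberg adjustment at 0.05. The script was tested on simulated data. Named microRNAs came from the 10 largest differences each way, the 10 nearest to 0 of at least 1000 RPM, the 10 most abundant, the 10 largest differences of differences, the 5 largest fetal differences not called at day 45, and the lists. The members and lists were chosen with earlier results of these data known. Alternatives were 3 other scalings, a pseudocount of 10, no filter or 50 RPM, 4 groups, a replicate block, leaving out each library and, added after seeing the data, voom weights. Replicate letters were not used to pair the libraries in the main fit. The mRNA FPKM values that the authors deposited were not used here, since they hold no embryo. Sequences are from RefSeq (GRCm38.p6), in which 355 of 479 hairpins matched.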

Additional observations from a re-analysis of the deposited data

Results flagged for a closer look

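The chr12qF1 cluster also stood above the uninjected adult level in libraries that entered no comparison here, the liver knockout (LKO) set. In the study LKO mice carry Cre under the Albumin promoter, so both kinds of library come from mice with Cre. In the 2 libraries labelled LKO_floxCre it made 6.02% and 9.22% of reads other than miR-122, and in the 2 labelled LKO_flox it made 1.49% and 6.97%, against at most 0.0338% in the day 0 livers. The libraries were not compared further.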

How the results depend on the processing

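The split of the day 45 against E18 calls depended on the scaling. With all reads, miR-122 included, 27 microRNAs were higher at day 45 than at E18. With libraries centred on their medians 63 were higher and 38 lower, and with 4 groups in the fit 10 were higher. No call turned to the opposite direction under any alternative run. Against day 0, 145 were higher with all reads, and 28 were lower when centred, 1 with a pseudocount of 10 and 1 with voom weights. For E18 against P270, centring gave 67 higher and 87 lower and all reads 8 lower. The difference of the differences gave 15 higher and 10 lower when centred, 63 lower with all reads and 35 lower with voom weights. Of the fetal microRNAs, 33 of 67 were higher at day 45 than at day 0 when centred and 117 of 205 with all reads. Of those lower at E18, 19 of 87 were lower at day 45 when centred, 1 of 14 with a pseudocount of 10 and 1 of 14 with voom weights. With all reads, 6 of the 8 lower at E18 were higher at day 45. The cause was not tested.

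When single libraries were left out, day 45 against E18 gave 8 to 20 higher and 56 to 122 lower (8 higher and 60 lower without E18 replicate A, 56 lower without replicate B). Day 45 against day 0 gave 39 to 58 higher and 0 to 1 lower, the 1 without day 45 replicate A. E18 against P270 gave 127 to 169 higher and 7 to 14 lower, the 7 without E18 replicate A. The difference of the differences gave 3 to 10 higher (3 without E18 replicate A, 5 without P270 replicate B) and 35 to 97 lower (51 without E18 replicate A, 35 without replicate B). The fetal microRNAs numbered 127 to 169, of which 38 to 55 were higher at day 45, and 0 to 1 of those lower at E18 were lower at day 45. The correlation of both differences was 0.63 to 0.717, and the log2 ratio of the chr12qF1 share was −3.24 to −2.22.

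Differences near 0 that were not called in the report changed sign. Without miR-122 and chr12qF1 reads, miR-126 was −0.20, miR-192 −0.28, miR-30d −0.18, miR-23a −0.14, miR-378 −0.14, miR-200b −0.10 and miR-23b −0.0518. With all reads miR-15a was 0.47, miR-143 0.42 and miR-200a 0.26, and when centred 1.84, 1.79 and 1.63, of which miR-143 and miR-200a were then called higher. With single libraries left out, the ranges were −0.0958 to 0.418 for miR-126, −0.120 to 0.408 for miR-192, −0.587 to 0.207 for miR-15a, −0.0671 to 0.438 for miR-30d, −0.542 to 0.168 for miR-143, −0.437 to 0.887 for miR-23a, −0.240 to 0.568 for miR-378 and −0.432 to 0.980 for miR-23b. With the replicate block, miR-192 was −0.0012 and miR-15a 0.0823. The block gave 16 higher and 108 lower for day 45 against E18 and 49 and 0 against day 0. Same-lettered libraries of day 45 and E18 correlated at 0.115 and 0.030 in their deviations from the group means. Those of day 0 and day 45 correlated at 0.007, −0.152 and 0.294, and those of E18 and P270 at 0.117 and 0.117. In groups this small, these values cannot show whether the letters stand for a shared batch. The planned edgeR and DESeq2 fits were not run, and voom weights on the recovered reads were used instead. Day 45 replicate A is the shallowest of the day 45 and E18 libraries, and a microRNA under 37.8 RPM can be missed in it. P270 replicate A has fewer reads other than miR-122, and a microRNA under 137 RPM can be missed there.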
